A study of Homo sapiens with 32 samples.

Results

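RNA from cells expressing MYC without MYC box II was compared with RNA from cells expressing full-length MYC. The deletion group is labelled d2 and the full-length group WT, each with 4 libraries, which makes 8 of the 32 libraries of the study. The labels give the deletion as "MYC 2" and do not describe it. That it removes MYC box II was inferred from the name. The cells of both groups are TET21, a human neuroblastoma line made from SH-EP cells with a MYCN transgene that is shut down by doxycycline. For 7 days up to harvest both groups were kept in doxycycline (1 µg/mL), and MYC or the mutant was expressed ectopically. All groups thus rest on 1 cell line. The protocol text names cells expressing WT MYC for every library, whatever its group. The labels do not say whether the 4 libraries of a group came from separate cultures, so the spread behind the authors' model may be technical. In both groups the titles number the libraries 4 to 7. Whether d2 and WT libraries of equal number belong together is not known here, nor is whether the authors' model paired them.

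The values are those of the authors' deposited table, which holds for each gene and comparison 1 log2 fold and 1 posterior probability that the gene is differentially expressed (PPDE). A gene is called where its PPDE is at least 0.95, which the file headers equate with a false discovery rate under 0.05, and only called genes are said to have risen or fallen in d2 relative to WT. Of 58317 listed genes, 38113 had a value in d2 against WT. The other 20204 had none, which the headers reserve for read counts of 0. Values per library, standard errors and sequencing depth were not used here, so the error of any 1 fold is not known. A bulk library also cannot tell fewer cells of a kind from less RNA per cell. A second deposited table covers the 9368 genes with a MYC binding site, and is called the second fit, since its folds and PPDE differ from those of the first. Binding was mapped by ChIP-seq in 1 experiment in cells expressing WT MYC.

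MYC is a transcription factor that binds DNA as a dimer with MAX, preferring a short palindrome called the E-box, and raises the output of genes for growth: ribosome production, nucleotide supply, mitochondria and entry into the cell cycle. MYC boxes are short conserved segments of the protein. Box II is the contact for TRRAP, a scaffold shared by the histone acetyltransferase complexes SAGA and NuA4, and its loss is known to impair transformation by MYC. MYC is also known to lower genes of adhesion, matrix and growth arrest. In neuroblastoma, MYC or MYCN drives growth, and cell lines range between an adrenergic and a mesenchymal state. SH-EP cells are of the mesenchymal kind.

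The gene for MYC itself had a log2 fold of 0.68 in d2 against WT with a PPDE of 0.049 by the authors' deposited table, which is not a call. Its log2 fold in the second fit of the authors' deposited table was 0.74 with a PPDE of 0.048. The same authors' deposited table gave MYC a log2 fold of 0.98 in WT against the empty vector EV, also not called. Reads from the transgene and from the endogenous gene cannot be told apart in these values, and a small deletion need not alter the count of the gene, so the fold does not check the d2 label. For MYCN, the transgene that doxycycline represses, the authors' deposited table gave a log2 fold of 0.31 with a PPDE of 0.007 in d2 against WT. Among 14 measured genes of the MYC and MAX network, 0 were called, with a median log2 fold of -0.09 by the authors' deposited table. MXI1, a MAX partner that opposes MYC, had the second highest PPDE of that list, 0.025, at a log2 fold of -0.55 by the authors' deposited table.

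In d2, 265 genes had risen and 289 had fallen, together 554 or 1.45% of the genes tested in the authors' deposited table, 0.695% and 0.758% respectively. Among 16838 protein-coding genes, 481 or 2.86% were called (1.39% risen and 1.47% fallen). The other called genes comprised 31 long noncoding RNAs, of which 15 had risen and 16 had fallen, 7 pseudogenes and 6 other noncoding RNAs, all 13 of which had fallen, and 29 names not matched to a type. The median absolute log2 fold of called genes was 0.69 in the authors' deposited table, with quartiles of 0.49 and 1.06. Risen genes had a median of 0.83 and fallen genes a median absolute value of 0.62 on the same scale. An absolute log2 fold of at least 1 was reached by 97 risen and 63 fallen genes, and one of at least 2 by 11 risen and 19 fallen genes. The median log2 fold over all tested genes was 0.04, and that over protein-coding genes was 0.06.

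**Figure D1:**
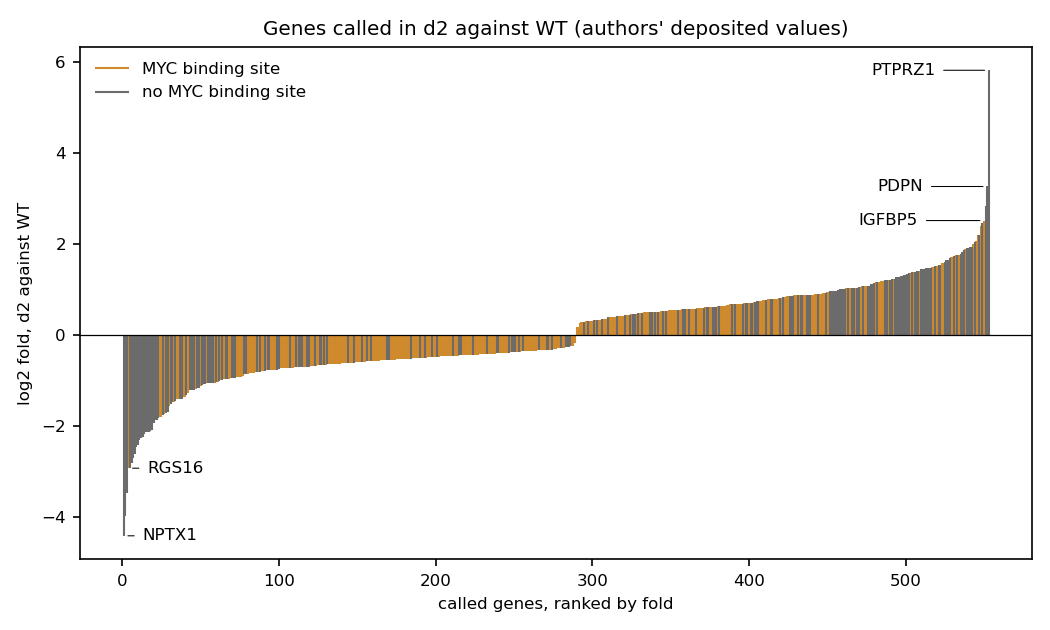
Log2 fold in d2 against WT (vertical axis) of the called genes in rank order (horizontal axis), each line 1 gene, coloured by whether the authors' list gives it a MYC binding site. CHL1 is left out, since it has no value in some comparisons. The largest falls are mostly genes without a binding site, down to NPTX1 at -4.42. The largest rises include genes without a site, up to PTPRZ1 at 5.82, and genes with one, such as IGFBP5 at 2.52.

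Genes with a MYC binding site made up 24% of tested genes and 57.8% of called genes, 63% of the fallen and 52.1% of the risen. Of 9159 bound genes with a value in the first fit, 320 or 3.49% were called, 138 risen (1.51%) and 182 fallen (1.99%). Of 28954 genes without a site, 234 or 0.808% were called, 127 risen (0.439%) and 107 fallen (0.37%). Expression level was not matched between the 2 sets. The second fit of the authors' deposited table called 447 of 9175 bound genes or 4.87%, with 199 risen (2.17%) and 248 fallen (2.7%).

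The 2 fits gave nearly the same folds and different calls. Of genes called in either, 582 in all, 0 had folds of opposite sign, the median difference was -0.02 and the largest 0.14 on the log2 scale. Only 184 genes were called in both, 76 risen and 108 fallen, which is 57.5% of the first fit's bound calls and 41.3% of the second fit's calls. The 136 bound genes called in the first fit alone had a median PPDE of 0.527 in the second, and the 262 called in the second alone had a median PPDE of 0.101 in the first. MN1, a transcriptional coregulator, was an extreme case: the authors' deposited table gave it log2 folds of 1.75 and 1.68, with a PPDE of 1.000 in the first fit and 0.000 in the second. For bound genes, a missing call in 1 fit thus went with an almost unchanged fold. Where a named gene with a binding site was not called in the second fit, this is said beside it.

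**Figure D2:**
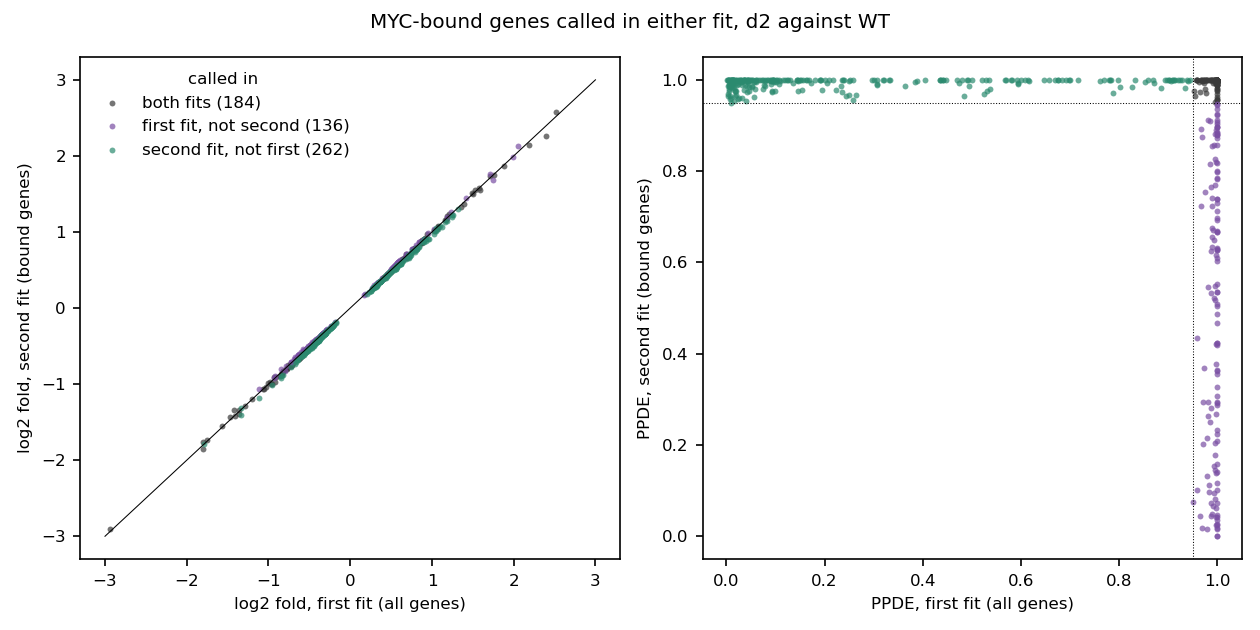
Bound genes called in either fit, as log2 fold (left panel) and PPDE (right panel) in the first fit (horizontal) against the second (vertical), each point 1 gene. The folds lie along the diagonal, while 136 and 262 genes lie along the edges of the PPDE panel, called in 1 fit only. Dotted lines mark a PPDE of 0.95.

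Promoters of the called genes were read for the E-box that MYC and MAX bind. Sequences are from RefSeq on GRCh38.p14, 250 bases before to 50 bases after each annotated start, and 409 of the 554 called genes matched by symbol. The build of the deposited tables is GRCh37, so positions were not set beside binding sites. The canonical E-box CACGTG, searched on both strands, occurred in 15.5% of 284 promoters of fallen genes and in 2.31% of 303 promoters of risen genes. It occurred in 7.26% of all 35116 promoters, in 8.55% of those of tested protein-coding genes, and in 10.2% of those of bound protein-coding genes. Among called genes with a binding site, the shares were 16% for fallen and 2.73% for risen genes. These are 44 promoters of fallen and 7 of risen genes, and a gene can have several promoters. The variant CACGCG was found in 21.8% of promoters of fallen and 12.5% of promoters of risen genes, against 15.1% for tested protein-coding genes.

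Of 289 fallen genes, 214 had a matched promoter, so the genes shown here need not be all of their kind. Shown are 4 fallen genes that belong to a list described here, were called in both fits and hold CACGTG in the window. HK2 is hexokinase 2, the first step of glycolysis, and RCL1 is a factor of the small-subunit processome. MDN1 is an ATPase that releases assembly factors from the large ribosomal subunit. ODC1 is ornithine decarboxylase, the entry to polyamine synthesis and a textbook MYC target. The promoters of these 4 genes are given 5′ to 3′ on the gene's strand, with each whole CACGTG in capitals. Each stretch holds 250 bases before the start and 30 from it on.
HK2: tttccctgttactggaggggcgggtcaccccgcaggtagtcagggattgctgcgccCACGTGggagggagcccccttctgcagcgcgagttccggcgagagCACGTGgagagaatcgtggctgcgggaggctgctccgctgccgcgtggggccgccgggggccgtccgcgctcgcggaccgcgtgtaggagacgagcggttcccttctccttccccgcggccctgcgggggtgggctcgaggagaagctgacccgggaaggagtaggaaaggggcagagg
RCL1: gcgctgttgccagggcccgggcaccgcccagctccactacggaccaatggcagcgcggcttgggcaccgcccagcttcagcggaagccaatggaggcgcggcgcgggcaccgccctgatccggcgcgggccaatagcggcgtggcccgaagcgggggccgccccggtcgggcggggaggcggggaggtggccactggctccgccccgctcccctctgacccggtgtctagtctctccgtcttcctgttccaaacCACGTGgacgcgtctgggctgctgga
MDN1: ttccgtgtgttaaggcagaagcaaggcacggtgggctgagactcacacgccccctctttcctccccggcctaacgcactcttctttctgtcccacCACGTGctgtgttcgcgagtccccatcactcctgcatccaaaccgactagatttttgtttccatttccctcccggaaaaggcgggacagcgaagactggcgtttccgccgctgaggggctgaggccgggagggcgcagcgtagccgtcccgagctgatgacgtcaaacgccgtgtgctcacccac
ODC1: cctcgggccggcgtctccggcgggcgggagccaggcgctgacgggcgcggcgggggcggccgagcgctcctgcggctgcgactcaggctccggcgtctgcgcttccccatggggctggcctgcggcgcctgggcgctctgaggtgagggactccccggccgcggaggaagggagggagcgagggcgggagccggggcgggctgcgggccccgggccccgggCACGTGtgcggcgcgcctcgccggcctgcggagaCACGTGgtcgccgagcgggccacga
The HK2 stretch (chr2:74834920-74835199, plus strand) holds matches that begin 194 and 149 bases before the start, and the authors' deposited table gave HK2 a log2 fold of -0.82. In the RCL1 stretch (chr9:4792694-4792973, plus strand) the match begins 4 bases after the start, and the log2 fold of RCL1 was -0.50 in the authors' deposited table. For MDN1 (chr6:89819765-89820044, minus strand) the match begins 155 bases before the start, and a second begins 27 bases after it and runs past the end of the stretch. Its log2 fold was -0.53 in the authors' deposited table. ODC1 (chr2:10447983-10448262, minus strand) has matches that begin 29 bases before and 5 bases after the start, and a log2 fold of -0.55 by the authors' deposited table. In WT against EV, the authors' deposited table gave HK2 1.02, RCL1 0.69, MDN1 0.61 and ODC1 0.76, all called.

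Risen genes were read for the letters that TEAD factors, the DNA-binding partners of YAP and TAZ, and AP-1 (FOS and JUN dimers) are known to bind. GGAATG, on both strands, occurred in 16.8% of promoters of risen and 9.51% of promoters of fallen genes, against 12% for tested protein-coding genes. Its share was 14% of all promoters. Among called genes with a binding site, GGAATG occurred in 15.3% of promoters of risen and 9.79% of fallen genes. TGACTCA, the AP-1 site, occurred in 6.6% of promoters of risen and 2.82% of fallen genes. Tested protein-coding genes had 3.84% and all promoters 4.95%. With a binding site, the shares for TGACTCA were 4.92% for risen and 2.58% for fallen genes. Among genes called in both fits, GGAATG occurred in 20.4% of promoters of risen and 6.42% of fallen genes. TGACTCA occurred in 3.06% of risen and 3.67% of fallen genes called in both fits, so the order of its shares was reversed there. Of 265 risen genes, 195 had a matched promoter, so genes with a motif may be missing from the choice shown here. Shown are 3 risen list genes of high PPDE that were called in both fits and hold either motif. These are IGFBP5, an IGF-binding protein of the matrix, the thrombospondin THBS2, and MYLK, myosin light chain kinase. All 3 hold GGAATG or its complement, in capitals.
IGFBP5: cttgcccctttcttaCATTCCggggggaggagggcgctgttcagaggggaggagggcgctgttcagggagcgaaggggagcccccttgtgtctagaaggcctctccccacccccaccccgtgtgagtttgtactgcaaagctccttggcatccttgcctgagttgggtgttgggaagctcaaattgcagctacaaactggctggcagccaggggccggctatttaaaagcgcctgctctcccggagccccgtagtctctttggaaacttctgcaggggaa
THBS2: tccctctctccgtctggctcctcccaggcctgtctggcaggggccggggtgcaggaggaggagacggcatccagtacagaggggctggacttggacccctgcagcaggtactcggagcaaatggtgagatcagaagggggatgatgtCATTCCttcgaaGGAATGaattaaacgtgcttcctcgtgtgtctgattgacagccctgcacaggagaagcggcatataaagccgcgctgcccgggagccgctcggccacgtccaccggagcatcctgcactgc
MYLK: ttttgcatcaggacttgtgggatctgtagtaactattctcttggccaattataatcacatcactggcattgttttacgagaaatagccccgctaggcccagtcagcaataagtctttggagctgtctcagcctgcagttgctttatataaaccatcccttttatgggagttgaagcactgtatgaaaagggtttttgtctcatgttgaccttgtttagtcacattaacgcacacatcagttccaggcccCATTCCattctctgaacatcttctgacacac
The IGFBP5 stretch (chr2:216695520-216695799, minus strand) has its match 235 bases before the start. The THBS2 stretch (chr6:169253817-169254096, minus strand) has matches 103 and 91 bases before the start, facing each other across a few bases. In the MYLK stretch (chr3:123620519-123620798, minus strand) the match begins 1 base before the start. The authors' deposited table gave log2 folds of 2.52 for IGFBP5, 0.88 for THBS2 and 0.87 for MYLK in d2 against WT. A match describes letters and shows neither binding nor a cause of the change.

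**Figure D3:**
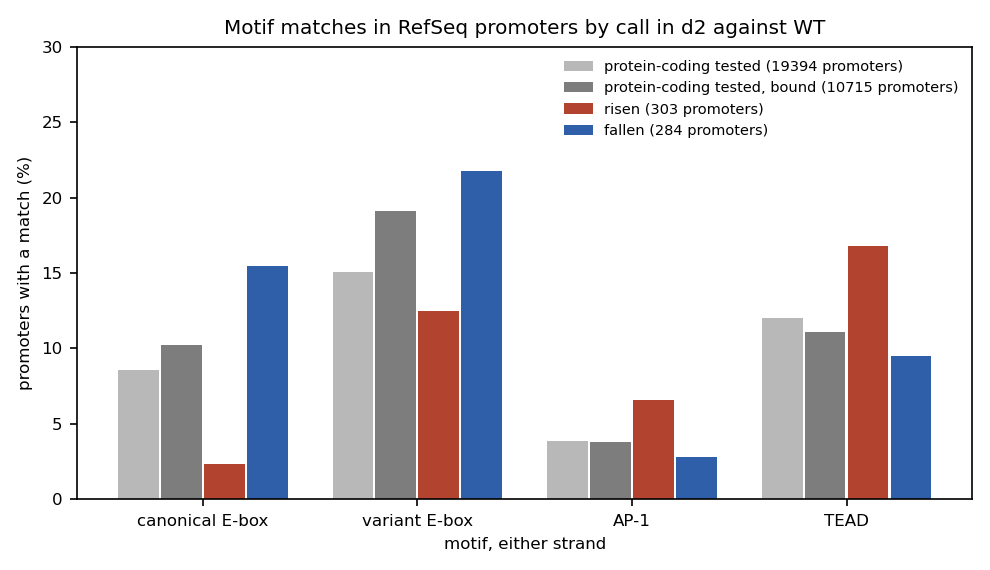
Share of RefSeq promoters with a match (vertical axis, percent) for each motif (horizontal axis), as bars for protein-coding genes tested, those with a MYC binding site, risen genes and fallen genes. The canonical E-box stands at 15.5% in fallen and 2.31% in risen genes, with all tested protein-coding genes between them at 8.55%.

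Called genes of ribosome production had all fallen. Of 124 measured genes in 3 lists (small-subunit processome, large-subunit assembly, nucleolar and snoRNP proteins), 16 had fallen and 0 had risen, or 12.9% called, against 0.758% fallen among all tested genes and 1.47% among protein-coding genes. The median log2 fold was -0.36 in the authors' deposited table and 121 of the 124 were below 0. None of the 16 reached an absolute log2 fold of 1, and the second fit called 15 of 106 as fallen.

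The small-subunit processome cuts and folds the precursor of 18S rRNA, and 5 of 45 of its genes and late maturation factors had fallen. IMP3, a component of the U3 snoRNP, had a log2 fold of -0.66 by the authors' deposited table, UTP14A -0.50 and RCL1 -0.50. The late 40S factors TSR1 and NOB1, the nuclease that makes the 3′ end of 18S rRNA, had log2 folds of -0.47 and -0.41 in the authors' deposited table. UTP14A and NOB1 were not called in the second fit, at PPDE 0.885 and 0.797.

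Large-subunit assembly had 6 fallen of 47 measured genes, and all 47 were below 0. RRP1B, a nucleolar assembly factor, fell most, with a log2 fold of -0.76 by the authors' deposited table. MDN1 (-0.53), NOP16 (-0.52), the helicases DDX24 (-0.45) and DDX55 (-0.43), and EBNA1BP2 (-0.33) followed in the authors' deposited table. In the second fit NOP16 and EBNA1BP2 were not called, at PPDE 0.882 and 0.082.

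Nucleolar and snoRNP proteins had 5 fallen of 32. POLR1C, shared by RNA polymerases I and III, had a log2 fold of -0.66 by the authors' deposited table, and POLR1E, a polymerase I subunit, one of -0.63. NOP56, a core protein of the snoRNPs that direct rRNA methylation, had -0.64, its chaperone NOLC1 -0.53, and the kinase NOL9, which acts on the internal spacer, -0.46 in the authors' deposited table. All 4 of these with a binding site were called in both fits, and POLR1C has no site. RNA polymerase III, which makes 5S rRNA and tRNA, had 0 called of 22 genes at a median log2 fold of -0.13 by the authors' deposited table. Its highest PPDE values were 0.851 for POLR3K (-0.65), which was called in the second fit, and 0.652 for POLR3A (-0.44).

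Proteins of the cytosolic ribosome itself shared the direction, and 5 of 75 (6.67%) passed the threshold. Their median log2 fold was -0.36 in the authors' deposited table, with 72 of 75 below 0. RPL14 had -0.65, RPS12 -0.59, RPL27A -0.46, RPS6, the target of S6 kinase, -0.46, and RPL4 -0.43 in the authors' deposited table. In the second fit 7 ribosomal protein genes had fallen. RPS6 and RPS12 were called in both fits, and RPL4, RPL14 and RPL27A were not called in the second, at PPDE 0.075, 0.909 and 0.782. Many ribosomal protein genes have processed pseudogenes, and how reads from such copies were counted is not given in the sources used here. Among 61 translation factors and tRNA synthetases, the lysyl enzyme gene KARS had fallen (-0.34) and the tryptophanyl enzyme gene WARS, which interferon is known to induce, had risen (0.58) in the authors' deposited table. Neither was called in the second fit, at PPDE 0.855 and 0.423. The share called in that list was 3.28%, near the 2.86% called among protein-coding genes.

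Mitochondrial protein synthesis had 7 fallen and 0 risen of 79 measured genes (8.86%), at a median log2 fold of -0.27 by the authors' deposited table with 73 below 0. The fallen genes were MRPS25 (-0.56), MRPL46 (-0.44), MRPS27 (-0.42), MRPS7 (-0.37), MRPS5 (-0.35), MRPS15 (-0.34) and MRPL16 (-0.32) in the authors' deposited table. MRPS25 and MRPS27 were called in both fits, while MRPS5, MRPS7 and MRPS15 were not called in the second, at PPDE 0.327, 0.101 and 0.364. Of 48 genes for import, chaperones and biogenesis, 3 had fallen (6.25%), all in both fits. Among protein-coding genes 1.47% had fallen. PPARGC1B, the PGC-1 family coactivator of mitochondrial genes, had a log2 fold of -1.36 by the authors' deposited table. GRPEL1, the nucleotide exchange factor of the matrix HSP70, had -0.72 and C1QBP, a matrix protein needed for mitochondrial translation, -0.59 in the authors' deposited table.

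C1QBP lies between RPAIN and DHX33 on chromosome 17, and the 3 neighbours in the GENCODE 29 order had all fallen. RPAIN, which carries replication protein A into the nucleus, had a log2 fold of -0.33 and DHX33, a helicase of rDNA transcription and translation, one of -0.52 in the authors' deposited table. RPAIN and C1QBP are adjacent, and whether reads were assigned by strand is not given in the sources used here.

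In 3 metabolic lists 2 genes each were called, which is 5.71% of glycolysis and glutamine genes, 6.9% of polyamine and one-carbon genes and 7.41% of sterol and lipid genes, against 2.86% of all protein-coding genes. HK2 had fallen and SLC2A3, the glucose transporter GLUT3, had risen with a log2 fold of 1.08 by the authors' deposited table, as the only called genes of 35 for glycolysis and glutamine. ODC1 and GLDC, the glycine decarboxylase of mitochondria, had fallen among 29 genes for polyamines and one-carbon units, with GLDC at a log2 fold of -1.47 by the authors' deposited table. FDFT1, squalene synthase (-0.47), and SCD, stearoyl-CoA desaturase (-0.62), had fallen of 27 genes for sterol and lipid synthesis in the authors' deposited table, both in both fits. The median log2 folds of these lists were -0.02, 0.01 and -0.22 in that order, all nearer to 0 than those of the ribosome lists in the authors' deposited table.

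For entry into S phase, CCNE1 (cyclin E1) and CDC25A, the phosphatase that activates CDK2 and a known MYC target, had fallen with log2 folds of -0.77 and -0.81 in the authors' deposited table, 2 of 20 G1 genes. MCM3 and MCM10 had fallen of 46 DNA replication genes, at -0.54 and -0.45 in the authors' deposited table, with 43 of 46 below 0 at a median of -0.19. MCM3 was not called in the second fit, at PPDE 0.509. Of 36 genes of G2 and mitosis 0 were called, 32 were above 0 and the median log2 fold was 0.25 in the authors' deposited table. The highest PPDE values there were 0.017 for CENPA and 0.013 for CDC25C. Among 28 growth arrest genes, TXNIP, a brake on glucose uptake, and KLF2, a quiescence factor, had risen in both fits with log2 folds of 0.80 and 1.07, and the antiproliferative gene BTG2 had fallen with -0.78 in the authors' deposited table. BCL2L11 (BIM), a trigger of apoptosis, was the 1 called of 29 p53 and apoptosis genes and had fallen, at -0.45 in the authors' deposited table. The shares called were 10% of G1 genes, 4.35% of DNA replication genes, 10.7% of growth arrest genes and 3.45% of p53 and apoptosis genes. Among protein-coding genes 2.86% were called, and the p53 and apoptosis share is near that.

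Called genes in the lists of the extracellular matrix had all risen. NOV, a gene for a secreted matricellular protein outside these lists, had fallen (-1.95) in the authors' deposited table. Of 136 measured genes in 3 lists, 18 had risen and 0 had fallen, or 13.2% called, against 0.695% risen among all tested genes and 1.39% among protein-coding genes. The median log2 fold was 0.57 in the authors' deposited table, with 113 of 136 above 0, and the second fit called 11 of 67 as risen. Many of these genes have no MYC binding site and therefore no second fit.

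Among collagens, 5 of 38 had risen. These were the basement membrane chain COL4A1 (1.40), the short-chain COL8A1 (1.32), the fibril-associated COL14A1 (1.22), and the fibrillar COL3A1 (0.94) and COL5A2 (0.62) in the authors' deposited table. COL3A1, the only one with a binding site, was called in both fits.

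Glycoproteins and laminins had 10 risen of 55. NPNT (nephronectin), an integrin ligand, had the largest log2 fold of 2.45, followed by FN1 (fibronectin) at 1.77, in the authors' deposited table. The laminin chains LAMA4 and LAMC1 had 1.54 and 0.48, SPARC, a matricellular protein, 1.13, and the microfibril proteins FBN1, LTBP2 and LTBP1 1.07, 0.88 and 0.67 in the authors' deposited table. The thrombospondins THBS1 and THBS2, which bind latent TGF-beta and matrix proteases, had 1.03 and 0.88 in the authors' deposited table. FBN1, LTBP1 and THBS2 were called in both fits, and LAMC1 was not called in the second, at PPDE 0.890.

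Of 43 proteases, inhibitors and crosslinkers, 3 had risen: MMP19 (1.50), the urokinase gene PLAU (1.23) and ADAMTS12 (0.58) in the authors' deposited table. PLAU was not called in the second fit, at PPDE 0.742.

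Called genes in the lists of adhesion receptors and the cytoskeleton had also all risen. ACTN2, an actinin gene outside these lists, had fallen (-1.75) in the authors' deposited table. The shares risen were 10.3% of YAP/TAZ genes, 8.82% of actin genes, 7.69% of integrin and focal adhesion genes, 5.13% of cadherins and immunoglobulin-type molecules and 3.85% of clustered protocadherins, against 1.39% of protein-coding genes. Integrins and focal adhesion genes had 3 risen of 39, ITGB3 (1.15), the scaffold NEDD9 (0.41) and VCL, vinculin (0.30), in the authors' deposited table, with 36 of 39 above 0. VCL was not called in the second fit, at PPDE 0.016. Of 34 actin and SRF target genes, LMOD1 (1.94), MYLK (0.87) and TPM1 (0.51) had risen in the authors' deposited table, and TPM1 was not called in the second fit, at PPDE 0.738. Targets and parts of the YAP/TAZ pathway, which relays stretch and adhesion to TEAD factors, had 3 risen of 29: CTGF (1.38), CYR61 (1.03) and the kinase LATS2 (0.51), itself a YAP target, in the authors' deposited table. LATS2 stood at PPDE 0.945 in the second fit, which called 6 of 23 YAP/TAZ genes as risen. Among 39 cadherins and immunoglobulin-type molecules, NRCAM (1.99) and CHL1 had risen in the authors' deposited table. NRCAM was not called in the second fit, at PPDE 0.876, and CHL1 is given no fold here, since it had no value in comparisons that share the WT libraries. Of 52 clustered protocadherins, PCDHGA10 (1.02) and PCDHGB7 (1.12) had risen in the authors' deposited table. Their transcripts share exons with neighbours, so reads cannot be assigned to 1 of them with certainty.

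Secreted signals and receptors held some of the largest rises. PTPRZ1, a receptor phosphatase of neural cells that binds pleiotrophin, had the highest fold of any gene named, 5.82 on the log2 scale in the authors' deposited table. FGF1 (1.70), EGF (0.95), the vascular phosphatase PTPRB (0.70) and PDGFA (0.55) had also risen, making 5 of 50 growth factor and receptor genes in the authors' deposited table. PDGFA was not called in the second fit, at PPDE 0.293. In the IGF axis, IGFBP5 (2.52) and PAPPA2, a protease that cleaves IGFBP5 (1.64), had risen of 18 genes in the authors' deposited table. INHBA, the activin A subunit (2.05), and BAMBI, a decoy receptor (0.55), had risen and BMP6 (-0.86) had fallen of 40 TGF-beta and BMP genes in the authors' deposited table. The shares called were 10% of growth factor and receptor genes, 11.1% of IGF axis genes and 7.5% of TGF-beta and BMP genes. Among protein-coding genes 2.86% were called.

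In Notch and Wnt signalling, called genes went both ways, 4 risen and 2 fallen of 40. HES1, the classic Notch target (1.04), TCF7L2 (0.62), the Wnt receptor FZD7 (0.62) and DKK3 (1.47) had risen in the authors' deposited table. The feedback inhibitors NKD1 of Wnt (-1.88) and NRARP of Notch (-1.06) had fallen in the authors' deposited table. Called genes of the immediate early and ERK feedback list went both ways too. The phosphatase gene DUSP1 (0.91) and the mRNA decay factors ZFP36 (0.95) and ZFP36L1 (1.06) had risen, and SPRY1 (-1.36) had fallen, of 32 genes in the authors' deposited table. ZFP36 was not called in the second fit, at PPDE 0.801. The shares called were 15% of the Notch and Wnt list and 12.5% of the immediate early and ERK feedback list, against 2.86% of protein-coding genes. In the list of 49 axon guidance genes, SLIT3 (1.71) had risen in the authors' deposited table, a share called of 2.04%, near that background. SLIT3 was not called in the second fit, at PPDE 0.882. The semaphorin gene SEMA3G, outside that list, had fallen (-2.13) in the authors' deposited table.

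The mesenchymal regulator SNAI2 (SLUG) had risen with a log2 fold of 1.36 and PDPN, podoplanin, with 3.27 in the authors' deposited table, the called members of 32 mesenchymal neuroblastoma genes. They make 6.25% of the list, against 2.86% called among protein-coding genes. The median log2 fold of the mesenchymal list was 0.30 in the authors' deposited table, with 24 of 32 above 0. Of 31 adrenergic genes 27 had a value, and SCG2 (secretogranin), a granule protein, had risen with 1.88 while the list's median log2 fold was -0.20 in the authors' deposited table. The share called in the adrenergic list was 3.7%, near the share of protein-coding genes. TH and SLC6A2, which mark the noradrenergic kind, had no value.

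Among remaining lists, antigen presentation had PDCD1LG2 (PD-L2) risen with a log2 fold of 1.59 and the peptide transporter TAP2 fallen with -0.55, both in both fits of the authors' deposited table. VLDLR (1.27), the 1 called gene of 20 in the ATF4 and unfolded protein list, had risen in the authors' deposited table together with its antisense transcript VLDLR-AS1 (1.57). Whether counting used strand is not given in the sources used here, so reads of the pair cannot be told apart. CTSB, cathepsin B (0.75), and the autophagy gene WIPI1 (0.59) had risen and GLA, alpha-galactosidase A (-0.41), had fallen of 30 lysosome genes in the authors' deposited table. CTSB and WIPI1 were not called in the second fit, at PPDE 0.552 and 0.693. A further list held 36 genes for TRRAP, the known contact of box II, and for the NuA4 and SAGA complexes that share it. RUVBL1, an ATPase of NuA4, was its only called gene, at -0.54 in the authors' deposited table. RUVBL1 was not called in the second fit, at PPDE 0.880, and the list's median log2 fold was 0.07 in the authors' deposited table. The share called in that list was 2.78%, near the 2.86% called among protein-coding genes. The other shares called were 9.09% of antigen presentation genes, 5% of ATF4 and unfolded protein genes and 10% of lysosome genes.

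The largest falls among named genes lay outside the growth lists. NPTX1, neuronal pentraxin 1, a secreted protein of synapses, had the lowest fold of any gene named, -4.42 on the log2 scale in the authors' deposited table, and was the only called gene of 42 for synapses. That is 2.38% of the synapse list, near the 2.86% called among protein-coding genes. RGS16, which shuts off G-protein signals, and PPP2R2C, a regulatory subunit of phosphatase 2A, each had -2.93, while RGS9 had risen with 1.65 in the authors' deposited table. IKZF3 (AIOLOS) and INPP5D (SHIP1), best known from lymphocytes, had -2.42 and -2.27 in the authors' deposited table. PLCXD3 (-2.24), TAS2R5 (-2.13), SEMA3G (-2.13), LBX1-AS1 (-2.10), NOV (-1.95), GRB14 (-1.80), ACTN2 (-1.75) and PPFIBP2 (-1.52) had also fallen in the authors' deposited table. Among the fallen genes of this paragraph the bound genes RGS16, GRB14 and ACTN2 were called in both fits. Apart from clone-based and LINC names, the largest rises outside the lists were, beside MN1, FOXL2NB (2.20), SORBS2 (2.19), DYSF, dysferlin (2.06), HCLS1 (1.93), CYS1 (1.83), AFAP1L2 (1.76), SERPING1, the C1 inhibitor (1.76), and CRISPLD2 (1.71) in the authors' deposited table. DYSF was not called in the second fit, at PPDE 0.911, and SORBS2, AFAP1L2 and CRISPLD2 were called in both.

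A stretch of chromosome 11 from the embryonic globin gene HBE1 to OR52D1 was below 0 throughout. This stretch was bounded by genes already seen to have fallen, so its counts are a description. It holds 16 measured genes in the GENCODE 29 order, of which 10 had fallen, 0 had risen and all 16 were below 0, at a median log2 fold of -2.08 and a range from -3.30 to -1.44 in the authors' deposited table. In the list of olfactory receptor and beta-globin cluster genes, 23 were measured, of which 8 had fallen, 0 had risen and 6 were above 0. Olfactory receptor genes normally act in the nose, and beta-globin genes in red cell precursors. HBE1 had -1.80, OR51M1 -2.83, OR51I2 -2.71, OR51B2 -2.63, OR51Q1 -2.47, OR51I1 -2.32, OR51B4 -1.88 and OR52D1 -1.72 in the authors' deposited table. The pseudogenes OR51K1P and OR51A10P had -2.19 and -2.15 in the authors' deposited table. OR51Q1, OR51K1P, OR51I1, OR51I2, OR51A10P and OR52D1 were 6 called genes in a row, the longest run found. The annotated span of HBE1 contains the other 15 genes and that of OR51B5 contains 12, so the 10 calls may rest on shared reads and are not 10 separate measurements. HBE1, the only one with a binding site, was called in both fits.

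Listed markers of other cell types had no call. These lists leave out IKZF3 and INPP5D, known from lymphocytes, which had fallen, and the vascular phosphatase PTPRB, which had risen. Of 58 measured markers of Schwann, immune, epithelial and endothelial cells, 0 were called in either fit, with a median log2 fold of 0.27 and a range from -3.94 to 3.18 in the authors' deposited table. SOX10, which defines Schwann cells, had no value. KRT5 and KRT14, keratins of basal epithelium, had log2 folds of 3.18 and 2.63 with PPDE 0.667 and 0.190 in the authors' deposited table, and TIE1, an endothelial receptor, had 1.87 with PPDE 0.866. Their levels were not used here, and their part in the results was not tested. Histone and mitochondrial genome transcripts, read as a sign of RNA quality, had 0 called of 25 at a median of 0.02 in the authors' deposited table. MT-CO3 and MT-RNR2 had -0.26 and 1.06 with PPDE 0.050 and 0.011 in the authors' deposited table. Interferon-stimulated genes had 0 called of 39, with IFI6 (0.48) called in the second fit only and STAT2 at 0.54 in the authors' deposited table. Cytokine genes had 0 called of 36, with CCL26 (1.11) at PPDE 0.940 and CXCL12 (1.72) at PPDE 0.887 in the authors' deposited table. The second fit of the authors' deposited table called 1 cytokine gene as risen, IL6, with a log2 fold of 0.97 there and 1.03 in the first fit, and it is named after its values were seen. Clock genes had 0 called of 19, with 16 above 0 at a median log2 fold of 0.31 and BHLHE40 at 0.71 in the authors' deposited table.

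The deposited table also holds WT against EV and the other deletions against WT. These share the WT libraries with d2 against WT, so a chance deviation of WT would enter all of them, and the values are given side by side without a test between mutants. NOP56 had 0.62 in WT against EV, -0.64 in d2, and -0.23, -0.31, -0.14, 0.15 and -0.31 in d0x, d1, d3a, d3b and d4 against WT in the authors' deposited table, where d1, d2 and d4 were called. For CCNE1 the authors' deposited table gave 0.78 in WT against EV, -0.77 in d2, and -0.42, -0.25, -0.26, 0.02 and -0.65 in the others, where d0x, d2 and d4 were called. CTGF had -1.83 in WT against EV, 1.38 in d2, and 0.64, 0.38, 0.23, 0.00 and 0.53 in the others, with d0x, d1, d2 and d4 called in the authors' deposited table. These 3 genes were picked from the genes called in d2 after their values were seen, a choice that favours large folds in d2.

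Other genes differed in which mutants they were called in. IKZF3 had 1.51 in WT against EV and -2.42 in d2, and between -0.44 and 0.19 in the other mutants of the authors' deposited table. SNAI2 had -1.35 in WT against EV and 1.36 in d2, and 0.00 to 0.37 in the other mutants of the authors' deposited table. RGS16 had 3.25 in WT against EV, -2.93 in d2, -1.30 in d0x and -0.80 in d1, all called, and values from -0.54 to -0.02 in d3a, d3b and d4 of the authors' deposited table. PTPRZ1 and PDPN were called in none of the other 6 comparisons: PTPRZ1 had -3.58 and PDPN -2.70 in WT against EV by the authors' deposited table. HBE1 had 1.31 in WT against EV, called, and between -0.53 and 0.37 in the other mutants of the authors' deposited table, where it was not called. NPTX1 differed from these, being called in all 7, with 5.34 in WT against EV, -6.38 in d0x, -2.75 in d1, -4.42 in d2, -3.36 in d3a, -2.21 in d3b and -4.30 in d4 of the authors' deposited table. A call in d2 and none in another mutant does not show that the mutants differ, since that difference was not tested.

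**Figure D4:**
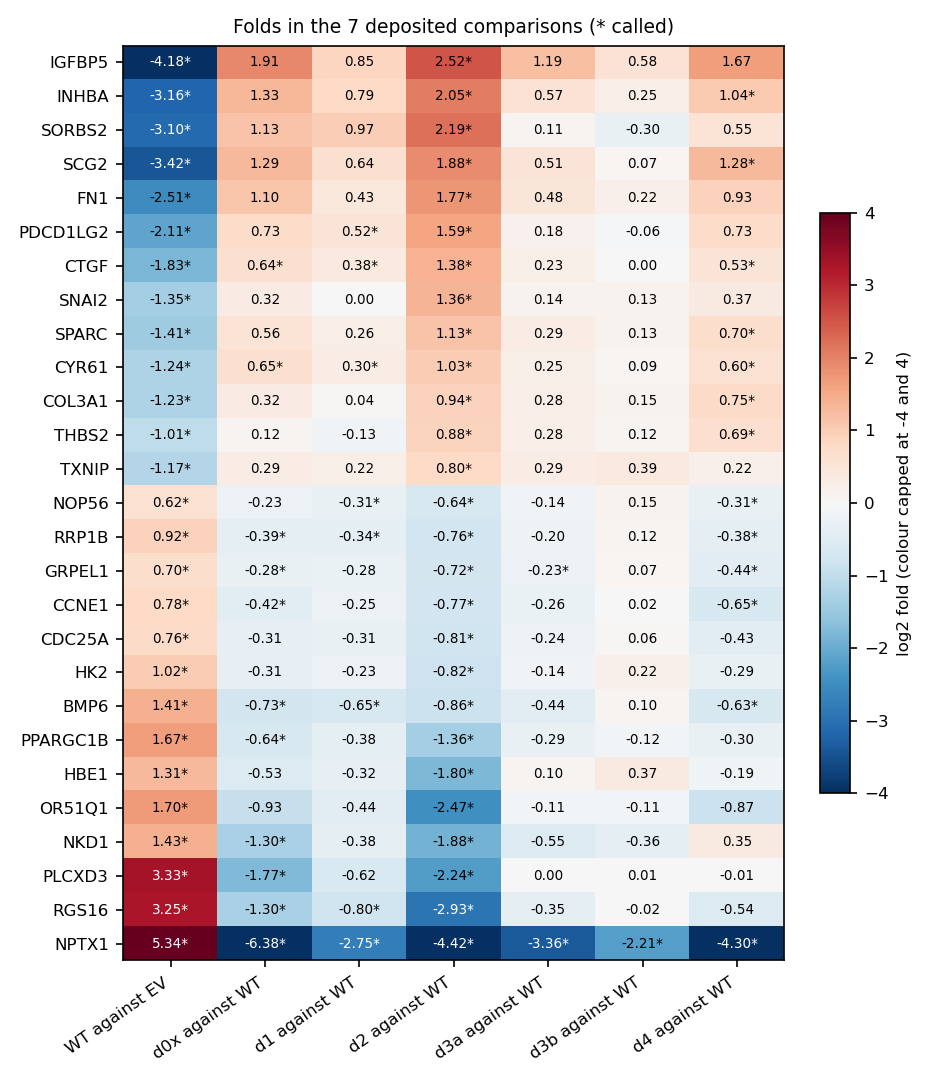
Log2 folds of selected named genes (rows) in the 7 deposited comparisons (columns), coloured from blue (negative) to red (positive) with the colour capped at 4 on each side, and an asterisk for a PPDE of at least 0.95. The genes were picked for display after their values were seen, and each is called in the d2 column, for example IGFBP5 at 2.52 and NPTX1 at -4.42. All columns share the WT libraries.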

How the data were processed

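RNA-seq libraries were made by a standard Illumina protocol, per the labels' protocols. Named in the submitters' processing notes are the build GRCh37, DESeq, R 3.3.1, the aligner STAR 2.5.2a and edgeR 3.16.5. Which program gave the posterior values, how libraries were scaled and how binding sites were assigned to genes are not given in the sources used here. The authors deposited log2 posterior fold changes and PPDE from a Bayesian model, per the file headers. For each of the 58317 genes, the deposited number of calls matched the comparisons with a PPDE of 0.95 or more.

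From these, genes were counted and described over 49 gene lists with 1672 distinct measured genes, using Python 3.11.15, pandas 2.3.3, numpy 2.4.6 and matplotlib 3.10.9. The counting was tested on simulated data. Symbols were matched to GENCODE 29 and RefSeq for type, order and promoters, and 26214 tested genes had a type. The members and lists were chosen with earlier results of these data known. Named were MYC, MYCN, the 20 risen and 20 fallen genes with the largest folds, the 10 and 10 with the highest PPDE, without clone-based and LINC names, every called list member, and up to 2 members of lists without a call. Some named items are not reported here. Genes in no such class were named after their values were seen. Alternatives changed the PPDE threshold, the fold minimum, the gene set, the fit and the centring.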

Additional observations from a re-analysis of the deposited data

How the results depend on the processing

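With a PPDE of at least 0.90 the called, risen and fallen genes numbered 625, 304 and 321, and at 0.99 they numbered 423, 201 and 222, within 1.5 times the reported 554, 265 and 289. A minimum absolute log2 fold of 1 left 160, 97 and 63, and 59 in the second fit, which calls 447 without it. Bound genes alone gave 320, 138 and 182 in the first fit. These smaller numbers follow from testing for larger folds and from fewer genes. The second fit gave 447, 199 and 248. Of named genes with a second fit, 68 kept their side of the threshold, 27 lost the call and 2 gained one, and the cause was not tested. Centring on the median gene changed no sign among 167 named genes and none of 98 list counts. It subtracted 0.04 from each log2 fold and left each PPDE as it was. The smallest absolute log2 fold of a called gene was 0.17, so centring could not change these counts. A threshold of 0.99 moved 13 of the 98 list counts, 0.90 moved 4, and the fold minimum of 1 moved 30. Under that minimum the small-subunit, large-subunit, nucleolar and ribosomal protein lists had 0 fallen genes, in place of 5, 6, 5 and 5. Leaving out genes whose fold is shared by at least 10 genes, chosen after seeing the data, left the 554 calls, since none of those 7132 genes was called. No paired analysis was possible because the deposited values are comparisons between groups, without values per library, and for the same reason no replicate could be left out. Depth and the spread between libraries are not known here.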

Other observations

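Several gene families were looked at after their called members had been seen, so their counts are descriptions. Called genes of RNA processing outside the ribosome lists had all fallen in these families, where 0.758% of all tested and 1.47% of protein-coding genes had fallen. Of 21 genes for Sm proteins, the SMN complex that loads them onto spliceosomal RNAs, and the methylosome that methylates them, 6 had fallen (28.6%) and all 21 were below 0. GEMIN5, which recognises the RNAs, had a log2 fold of -0.77 by the authors' deposited table, GEMIN7 -0.58, the methyltransferase PRMT5 -0.51 and its partners WDR77 -0.57 and COPRS -0.44. SNRPD3, an Sm protein, had -0.52 in the authors' deposited table. GEMIN5 and SNRPD3 were called in both fits, and PRMT5, WDR77 and COPRS were not called in the second. Of 11 RNA exosome genes EXOSC2 (-0.66) and EXOSC7 (-0.46) had fallen in the authors' deposited table, EXOSC7 in the first fit only. Of 8 subunits of the CCT chaperonin, which folds actin and tubulin, CCT3 (-0.49) and CCT5 (-0.35) had fallen in the authors' deposited table, neither in the second fit, and all 8 were below 0. The shares fallen were 18.2% of the exosome and 25% of the CCT genes. Of 41 genes for respiratory complexes I and II, 7.32% had fallen: NDUFS3 (-0.48), SDHB (-0.45) and NDUFA9 (-0.36) in the authors' deposited table, while the median log2 fold was -0.01.

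Called small nucleolar RNAs of 1 imprinted cluster and called snoRNA host genes had all fallen. Of 25 SNORD116 copies, from the imprinted Prader-Willi region, 4 had fallen (16%), against 0.758% of all tested genes. All 25 were below 0, at a median log2 fold of -0.77 by the authors' deposited table. Many copies that were not called had a PPDE near 0. SNORD116-10, with the lowest log2 fold of -1.84, had a PPDE of 0.000 in the authors' deposited table. SNORD116-7 had -0.98, SNORD116-13 -0.95, SNORD116-14 -0.86 and SNORD116-19 -0.59 in the authors' deposited table. The copies are near-identical, so their reads may be shared. Of 23 measured SNHG genes, which carry snoRNAs in their introns, SNHG4 (-1.09), SNHG16 (-0.73) and SNHG15 (-0.63) had fallen and 19 were below 0 in the authors' deposited table. SNHG15 was not called in the second fit. The share fallen was 13% of SNHG genes, against 0.758% of all tested genes.

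C1R (1.40), C1S (1.39) and their inhibitor SERPING1 (1.76) had risen, 3 of 5 measured in the authors' deposited table. That is 60%, against 1.39% risen among protein-coding genes. Of 11 MAGEA and GAGE genes, normally silent outside the testis, GAGE1 (-1.17), MAGEA1 (-0.70), MAGEA6 (-0.39) and MAGEA3 (-0.38) had fallen in the authors' deposited table, and their near-identical copies make the assignment of reads uncertain. The share fallen was 36.4%, against 1.47% of protein-coding genes. LINC01021 (-3.48) and LINC01133 (2.83) were the long noncoding RNAs with the lowest and highest fold among called ones in the authors' deposited table.

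A set of 7132 tested genes, 18.7%, had an exact fold that at least 10 genes share, the gene itself included. None of them was called, and their highest PPDE was 0.108 in the authors' deposited table.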
